A study of Mus musculus with 28 samples.

Results

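The genes described here are 58 genes of the cell cycle, followed in mouse peripheral nerve over 7 stages of development. They were chosen by name for their textbook roles in G1 entry, DNA replication and mitosis. Their Ensembl mouse identifiers were looked up in a count table of 41605 genes, where all 58 were found, and all 58 passed the filter on low counts that left 17700 genes for testing. They fall into 5 D cyclins and partner kinases, 8 G1/S cyclins, kinase and E2F factors, 11 replication genes, 3 genes of nucleotide supply, and 31 genes of mitosis. The mitosis genes comprise 9 mitotic cyclins, kinases and transcription factors, 6 genes of chromosome structure and proliferation, 8 of the kinetochore and its checkpoint and 8 of the spindle and cytokinesis.

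The measurement was bulk sequencing of polyadenylated RNA with 28 libraries, 4 for each stage, at embryonic days 13 and 17 (E13 and E17 in the labels, embryonic days 13.5 and 17.5 in the study) and at postnatal days 1, 5, 14, 24 and 60 (P1 to P60). All animals were untreated C57BL/6J mice that were not perfused, and no transgene or deletion was involved. Each E13 library came from various nerves distal to the dorsal root ganglia pooled from 2 embryos, each E17 library from the sciatic nerves of 2 embryos, and each postnatal library from the sciatic nerves of 1 mouse. From E17 on, epineurium and perineurium were stripped by hand, which was not done at E13, so that age, nerve type and dissection cannot be told apart in the comparison of E17 with E13. Males and females contributed equally to every stage according to the study, although the labels do not give the sex of a library.

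A cell enters division through cyclins of the D type, which bind Cdk4 or Cdk6 and phosphorylate the retinoblastoma proteins that hold E2F transcription factors in check. E2F factors then drive cyclin E, the enzymes of deoxynucleotide supply and the licensing proteins that load the MCM helicase onto replication origins, whereas a later wave of genes, driven through B-Myb and FoxM1, builds the spindle, the kinetochore and the cleavage furrow. In developing nerve, immature Schwann cells divide while they sort axons, and they leave the cell cycle as they begin to myelinate. Mesenchymal cells, vascular cells and macrophages of the nerve can divide as well. In bulk RNA, fewer dividing cells and less RNA per cell cannot be told apart.

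Total counts per library ranged from 13899895 to 37662780. The members had between 5431 and 315331 counts each, summed over all libraries. Levels are given as CPM, the counts of a gene per 1000000 counts of the library total after TMM scaling, a correction for differences in library composition. The labelled tissue was checked against 5 Schwann cell genes (Sox10, Erbb3, S100b, Foxd3, Pmp22), which were detected at every stage, with a summed level of 279 to 630.1 CPM at E13 and 2054 to 2264 CPM at E17. There were 3 libraries that stood apart from their stage by a slope of expression on the GC content of the transcript, which was -0.93 log2 units per 10 percentage points in E13 replicate 1, 0.73 in E13 replicate 4 and -0.43 in P1 replicate 1, against -0.16 to 0.20 in the others. The median transcript GC content was 48.1% for the members and 49.5% for all genes tested.

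A gene was called in a comparison of stages at an adjusted p under 0.05 (edgeR quasi-likelihood test, Benjamini-Hochberg adjustment over all 17700 genes) together with a difference of at least 2-fold. Over the whole timeline, all 58 members were called changed, where 70.0% of all genes tested were. The stage of the highest mean was E17 for 54 members, E13 for Cdk4 and Mcm7, and P1 for Ccnd3 and E2f3. The lowest mean was at P60 for 51 members. After E17, the mean of 49 members fell at every one of the following 5 steps, and the exceptions were Ccnd2, Ccnd3, E2f3, Mcm4, Mcm7, Pcna, Bub1b, Cdc20 and Anln. The shares of all genes tested with the same highest stage, lowest stage or unbroken fall were not counted. The heat map of members by library shows the shared high at E17 and the groups that part from each other at P60.

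**Figure D1:**
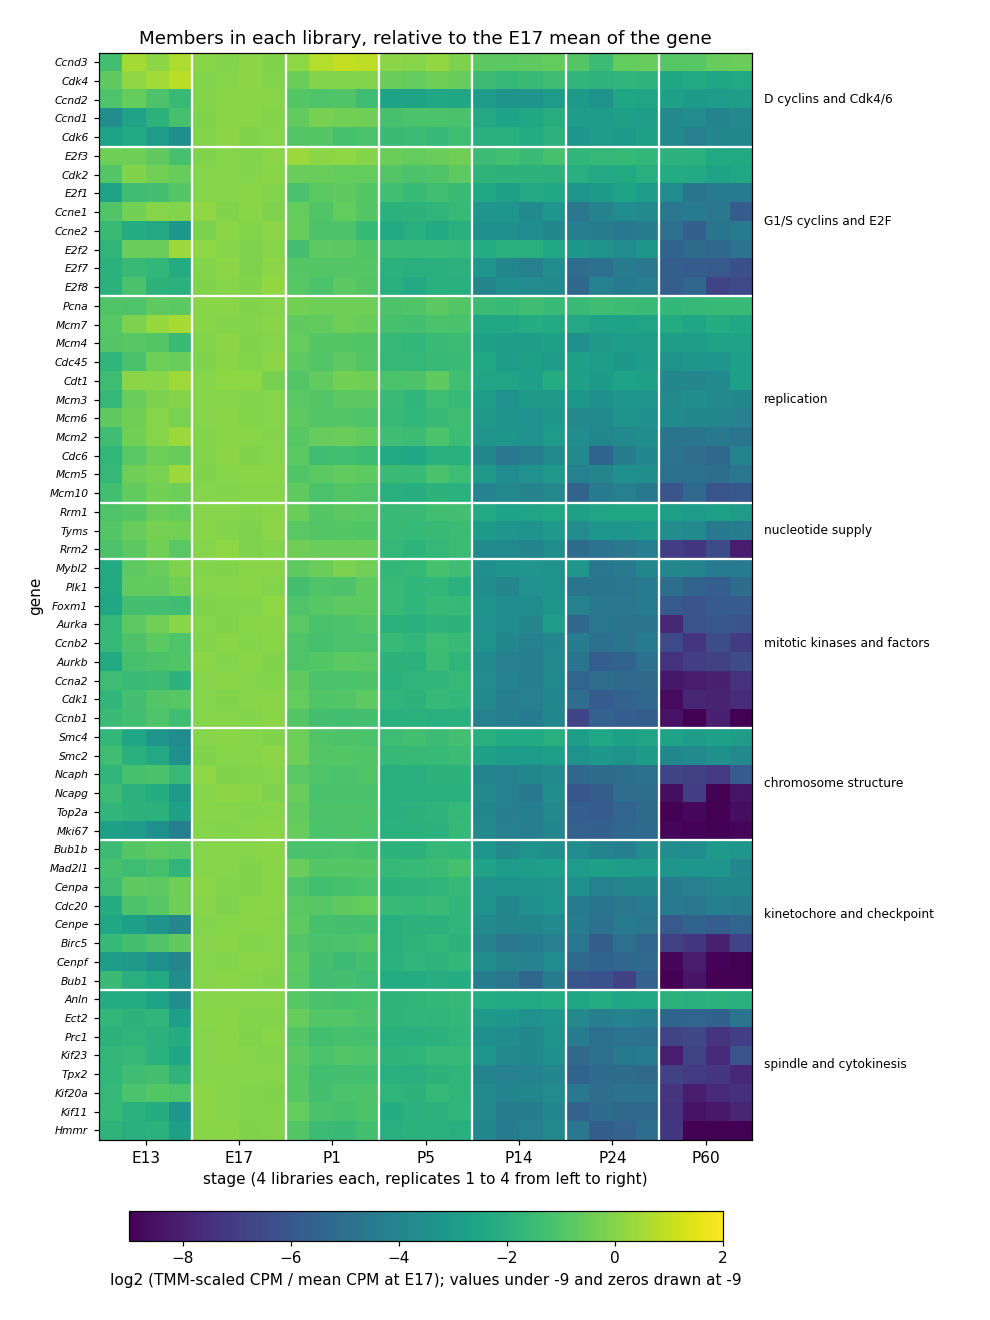
Heat map of the 58 members (rows, by group) in the 28 libraries (columns, by stage, replicates 1 to 4 from left to right). The colour is log2 of the TMM-scaled CPM over the mean CPM of the gene at E17, so that E17 sits near 0. At P60 the D cyclin group keeps a median of 13.8% of its E17 mean and the 31 mitosis genes 0.840%.

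Promoters of the members were taken from RefSeq (GRCm38.p6), as the bases before the annotated start site. The table held a promoter for 48 members, and none for Ccnd1, Ccnd2, Ccne2, Mcm4, Ccna2, Aurkb, Foxm1, Smc4, Kif20a and Tpx2. For 44 of the 48 the start site lay within 200 bases of the start of the principal transcript used for lengths. For 18 of the 48, some of the 250 bases before this start lay in an annotated exon of the same gene, since other transcripts start further upstream. These were over 30 bases in 8 members (Ccnb1, Ccne1, Cdc6, Cdk6, Cenpa, E2f1, Mcm7 and Pcna) and the whole window in E2f1 and Mcm7. In the stretches printed they are the last 26 bases of Cdk1, 9 of Cdc20 and 6 of Bub1. The letters searched on both strands were TTTGAA and TTTAAA (the core of the cell cycle homology region, CHR, of late cell cycle genes), CCAAT (the letters bound by NF-Y), and TTTGGCGC, TTTCCCGC, TTTGCCGC, TTTCGCGC and TTTGGCGG (E2F letters). The E2F letters can overlap each other, because TTTCGCGCCAAA holds TTTCGCGC on one strand and TTTGGCGC on the other.

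Within 250 bases before the start, 14 of 25 mitosis promoters (56%) and 3 of 13 promoters of replication and nucleotide genes (23.1%) held a CHR, where 25.2% of the 32851 promoters of the table did and 17.6% of the promoters of the 11720 protein-coding genes tested (1 promoter each). CCAAT was found in 20 of 25 (80%) and 10 of 13 (76.9%), against 33.8% of the table and 35.7% of the genes tested. The E2F letters were found in 1 of 25 (4%), which was Cdk1, and in 4 of 13 (30.8%), which were Cdc6, Mcm5, Mcm6 and Mcm7, against 2.28% of the table and 3.84% of the genes tested. Among the 10 promoters of the D cyclin and G1/S groups, 2 held a CHR (Ccne1 and E2f8), 4 held CCAAT and 2 held E2F letters (Cdk2 and E2f7). A CHR together with at least 2 CCAAT was held by 10 members, of which 9 were mitosis genes (Ccnb1, Ccnb2, Cdk1, Cdc20, Cenpa, Cenpf, Ect2, Mki67 and Top2a) and the other was Mcm5. The share of all promoters with this combination was not counted. A match is a description of the letters and was not tested as a binding site.

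The stretches below end at the base before the start site and run 5′ to 3′ on the strand of the gene, with matches to the searched letters in capitals. Ccnb2, Cdk1, Top2a, Cdc20 and Bub1 are shown as mitosis genes, Mcm5 and Mcm6 as replication genes with E2F letters, and Ccnd3 as a gene that held none of the letters.
Ccnb2, chr9:70421555-70421734, minus strand: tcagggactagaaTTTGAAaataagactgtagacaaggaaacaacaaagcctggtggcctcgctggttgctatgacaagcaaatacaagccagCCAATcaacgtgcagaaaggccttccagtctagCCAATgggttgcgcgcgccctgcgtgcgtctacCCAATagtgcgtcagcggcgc
Cdk1, chr10:69352913-69353132, minus strand: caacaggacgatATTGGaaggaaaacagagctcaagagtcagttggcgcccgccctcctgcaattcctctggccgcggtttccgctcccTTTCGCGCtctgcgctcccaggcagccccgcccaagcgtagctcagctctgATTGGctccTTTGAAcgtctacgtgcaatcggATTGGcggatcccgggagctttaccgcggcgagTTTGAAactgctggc
Top2a, chr11:99024190-99024439, minus strand: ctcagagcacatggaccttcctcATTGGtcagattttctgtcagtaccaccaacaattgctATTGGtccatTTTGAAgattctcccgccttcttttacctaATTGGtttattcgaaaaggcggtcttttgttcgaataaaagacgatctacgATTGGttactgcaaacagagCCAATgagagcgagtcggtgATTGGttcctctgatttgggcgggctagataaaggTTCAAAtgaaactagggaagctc
Cdc20, chr4:118437344-118437423, minus strand: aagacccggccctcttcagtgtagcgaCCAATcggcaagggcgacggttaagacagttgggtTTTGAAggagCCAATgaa
Bub1, chr2:127831860-127831949, minus strand: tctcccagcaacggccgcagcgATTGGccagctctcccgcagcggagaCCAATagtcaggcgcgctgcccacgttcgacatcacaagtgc
Mcm5, chr8:75109269-75109508, plus strand: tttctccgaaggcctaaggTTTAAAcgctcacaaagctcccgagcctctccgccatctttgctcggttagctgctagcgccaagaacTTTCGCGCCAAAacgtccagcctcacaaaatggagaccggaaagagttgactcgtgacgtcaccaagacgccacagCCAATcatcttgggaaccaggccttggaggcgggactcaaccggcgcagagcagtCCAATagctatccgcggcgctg
Mcm6, chr1:128359706-128359830, minus strand: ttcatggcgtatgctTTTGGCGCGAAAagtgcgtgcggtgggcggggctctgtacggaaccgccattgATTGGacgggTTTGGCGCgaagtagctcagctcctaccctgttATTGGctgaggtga
Ccnd3, chr17:47504971-47505050, plus strand: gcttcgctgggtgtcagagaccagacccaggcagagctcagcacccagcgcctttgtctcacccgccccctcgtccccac
Ccnb2 shows a CHR at 167 bases before the start, upstream of 3 CCAAT, and Top2a shows 6 CCAAT, some of them in the reverse orientation (attgg). The Bub1 stretch holds 2 CCAAT and no CHR. Mcm5 and Mcm6 show the overlapping E2F letters, and Mcm5 a distant TTTAAA at 221 bases.

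From E13 to E17, 33 members were called higher and none lower, where 14.2% of all genes tested were called higher and 21.2% lower. The median log2 fold change over the members was 1.12, and over all genes tested -0.08. Of the 31 mitosis genes 25 were called (median 1.53), with the largest values for Cenpf, a kinetochore protein (3.28), Mki67, the proliferation antigen Ki-67 (3.22), and Cenpe, a kinetochore motor (2.98). Of 14 replication and nucleotide genes (median 0.55) only Mcm4 was called higher (1.04), and without E13 replicate 4 it was not. Among the mitosis genes, the calls of Ccnb2, Cdk1, Birc5 and Kif20a were lost without E13 replicate 1. At an adjusted p under 0.05 with no fold minimum, all 31 mitosis genes and 9 of the 14 replication and nucleotide genes rose, where 28.1% of all genes tested did, and the difference between the classes was not tested. Among the G1/S genes, Ccne2 (2.20), E2f7 (1.83), E2f8 (1.69) and E2f1 (1.42) were called higher. The 6 mitosis genes that were not called were Plk1 (0.82), Aurka (0.55), Mybl2 (0.73), Bub1b (0.95), Cdc20 (0.98) and Cenpa (0.75).

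The E13 libraries differed among themselves, and the gap between the classes differed with them. Taken relative to E17, the median of the mitosis genes was -1.72, -1.40, -1.27 and -1.85 on the log2 scale in E13 replicates 1 to 4, and that of the replication and nucleotide genes -1.21, -0.60, -0.27 and -0.35. The mitosis genes were thus lower than the replication genes in each of the 4 libraries, by 0.51 in replicate 1, 0.80 in replicate 2, 1.00 in replicate 3 and 1.498 in replicate 4. Replicate 1 had the GC slope of -0.93 and replicate 4 that of 0.73, and the part of this slope in the gap was not tested. Without E13 replicates 1 and 4 and P1 replicate 1, 30 members were called higher at E17.

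Other cell types moved in the same comparison. All 10 erythroid genes were called lower at E17, with a summed level of 4498 to 28438 CPM at E13 and 364 to 1009 CPM at E17, and all 6 genes of neuron cell bodies were called lower, from 299 to 478 CPM down to 12.6 to 19.8 CPM. Of 6 skeletal muscle genes 5 were called lower and Ckm higher, with sums of 23.5 to 546 CPM at E13 and 4.54 to 17.5 CPM at E17. Of 7 macrophage genes 6 were called lower, from 309 to 389 CPM down to 85.9 to 96.9 CPM. All 5 Schwann cell genes and 4 of 5 mesenchymal genes (1519 to 2590 CPM at E13, 16117 to 18074 CPM at E17) were called higher, as were 3 of 6 endothelial and 2 of 4 perineurial genes. Of 4 cartilage genes tested, 2 were called lower and 1 higher. The part of these cell types in the rise of the members was not tested.

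After E17 the members fell in most steps. From E17 to P1, 18 members were called lower and none higher, against 5.41% and 6.31% of all genes tested, and 52 fell at an adjusted p under 0.05 at any fold, where 14.4% of all genes tested did. Called lower were 14 of 31 mitosis genes and 1 of 14 replication and nucleotide genes (Cdc6), and at any fold 30 and 13 of them fell. The median log2 fold change of the members was -0.92, close to the 2-fold limit, with -0.99 in mitosis and -0.80 in replication and nucleotide genes. The largest falls were those of Hmmr, a spindle protein (-1.26), Cdc6, which loads the helicase (-1.20), Ccnb1, cyclin B1 (-1.18), and Bub1, a checkpoint kinase (-1.18). Ccnd3, in contrast, rose at an adjusted p of 0.0281 but by less than 2-fold (0.73). Without P1 replicate 1, 27 members were called lower, and with library size alone in place of TMM 32.

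From P1 to P5, 10 members were called lower and none higher, against 1.79% and 4.05% of all genes tested, and 51 fell at any fold, where 7.33% of all genes tested did. The median was -0.77. The called genes were Ccnd2 (-1.47), Ccne1 (-1.04), Ccne2 (-1.16), E2f7 (-1.07), E2f8 (-1.21), Mcm10 (-1.09), Rrm2 (-1.17), Mybl2 (-1.05), Ncapg (-1.10) and Bub1 (-1.02). With library size alone the count was 23. Without P1 replicate 1 it was 5, and Ccne1, Ccne2, Mcm10, Ncapg and Bub1 were no longer called. The E17, P1 and P5 libraries of almost every member did not overlap between adjacent stages, with 55 of 58 members lower in all libraries of the later stage in either step taken alone. The share of all genes tested without such overlap was not counted.

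Of the adjacent steps, the one from P5 to P14 had the most calls. Here 48 members were called lower and none higher, against 4.91% and 7.11% of all genes tested, and the median was -1.69. For all 58 members every P14 library lay below every P5 library, and the share of all genes tested that did so was not counted. Mitosis (29 of 31 called, median -1.94) and replication with nucleotide supply (13 of 14, median -1.58) were both included. The largest falls were those of Birc5, survivin of the chromosomal passenger complex (-2.46), Bub1 (-2.43), Cdk1, the mitotic kinase (-2.26), and Ccnb2, cyclin B2 (-2.26). The members that were not called were Ccnd2, Ccnd3, Cdk4, Cdk6, Cdk2 (-0.97), E2f2 (-0.61), E2f3, Pcna, Smc4 and Anln. Of the cell type markers, 3 of 4 cartilage genes were called lower in this step, with a sum of 80.7 to 94.9 CPM at P5 and 14.8 to 20.1 CPM at P14. Called higher were the perineurial Slc2a1 and Itgb4, the endothelial Cldn5, the Schwann cell gene S100b, the macrophage Cd163, the muscle gene Ckm and the erythroid Hbb-y, and no mesenchymal gene was called. Their part in the fall of the members was not tested.

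In the last steps of the timeline the classes parted further. In the step to P24, 21 members were called lower and none higher, against 1.14% and 1.51% of all genes tested. Of these, 20 were among the 31 mitosis genes (median -1.12), 1 was E2f2 (-1.11), and none was among the 14 replication and nucleotide genes (median -0.23), of which Rrm2 alone fell at an adjusted p under 0.05 (-0.88), where 2.72% of all genes tested did at any fold. In the step to P60, 29 members were called lower and none higher, against 3.41% and 2.55% of all genes tested. Of these, 22 were mitosis genes (median -1.98), 3 were replication or nucleotide genes (median -0.47), namely Mcm5 (-1.14), Mcm10 (-1.24) and Rrm2 (-2.43), and 4 were E2F genes, E2f1 (-1.34), E2f2 (-1.84), E2f7 (-1.20) and E2f8 (-1.55). The difference between the classes has no test of its own here, and the values of every gene are shown in the plot of fold changes.

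**Figure D2:**
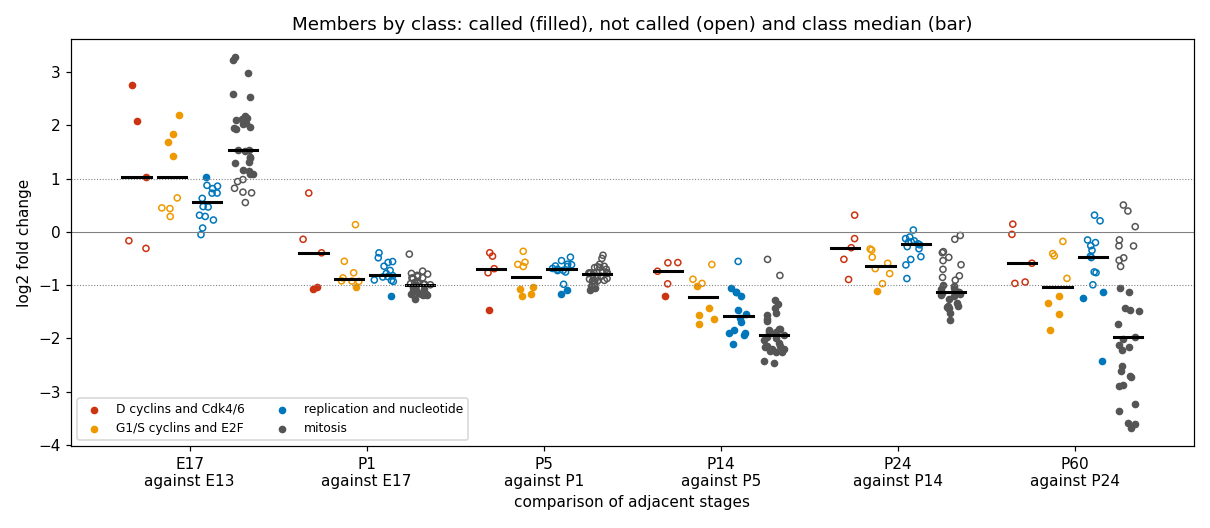
Fitted log2 fold change (vertical axis) of each member in the 6 comparisons of adjacent stages (horizontal axis), by class, with called genes filled, others open and a bar at the class median. Both classes rise to E17 and fall in each step from E17 to P14, and in the last 2 steps the mitosis genes have medians of -1.12 and -1.98 and the replication and nucleotide genes -0.23 and -0.47.

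The gap between the classes was present in every library of the stages after E17. Relative to the E17 mean, where the gap is near 0 by construction (-0.02 to 0.04 log2 units in the E17 libraries), the replication and nucleotide median lay above the mitosis median by 0.09 to 0.36 log2 units at P1, 0.23 to 0.33 at P5, 0.62 to 0.78 at P14, 1.14 to 1.69 at P24 and 2.51 to 3.27 at P60. The ranges of P5, P14, P24 and P60 did not overlap. Summed over all 58 members, the level was 9878 to 10032 CPM at E17 and 627 to 649 CPM at P60.

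Over the stripped sciatic nerves as a whole, from E17 to P60, 57 members were called lower and none higher, against 17.5% and 22.2% of all genes tested, and the median was -4.88. The remaining member, Ccnd3, fell at an adjusted p of 0.0203 but by less than 2-fold. Set as a share of the E17 mean, the P60 mean had a median of 0.84% over the mitosis genes, 3.47% over the G1/S genes, 6.13% over the nucleotide genes, 7.36% over the replication genes and 13.8% over the D cyclins and their kinases. Under 1% was left of 18 members, of which 17 were mitosis genes and the other was Rrm2. Over 10% was left of 12 members, which were Ccnd2, Ccnd3, Cdk4, Cdk2, E2f3, Mcm4, Mcm7, Cdc45, Pcna, Rrm1, Smc4 and Anln. Of the 58 members, 21 overlap a gene on the other strand in the annotation, among them Ccnd3 (Bysl), Cdk4 (Tspan31), Cdk2 (Pmel), Cdc45 (Ufd1) and Mcm7 (Cops6 and Ap4m1), and also Ccnd1 (LTO1) and Cdc20 (Elovl1), and 9 overlap one on the same strand. The study does not say if counting used strand, so reads of such neighbours cannot be told apart from those of the members with certainty. The plot of levels relative to E17 shows this spread.

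**Figure D3:**
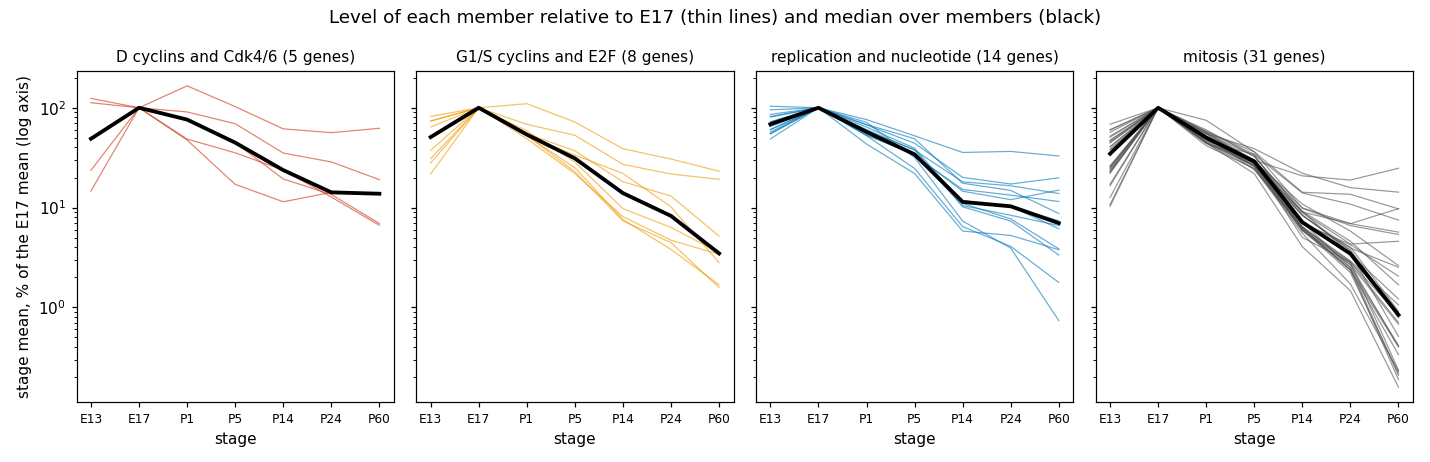
Stage mean of each member as a percent of its E17 mean (vertical log axis) by stage (horizontal axis), in 4 panels by class, with the median over members in black. The medians at P60 are 13.8% for the D cyclins and kinases, 3.47% for the G1/S genes and 0.840% for mitosis, where the lines fan out from 0.158% (Bub1) to 24.8% (Anln).

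The D cyclins differed in how much of them was left in the adult. Ccnd1 encodes cyclin D1. Its level was 96.8, 187, 319 and 515 CPM at E13, 1122, 1226, 1231 and 1147 at E17, 764, 981, 936 and 916 at P1, 506, 539, 544 and 523 at P5, 228, 195, 225 and 266 at P14, 155, 156, 168 and 160.1 at P24, and 82.96, 91.4, 69.8 and 82.9 at P60. The E17 libraries were the highest of the timeline and the P60 libraries the lowest, while the E13 libraries spread from close to the adult level in replicate 1 to 515 CPM in replicate 4. Ccnd1 was called higher at E17 than at E13 (log2 fold change 2.08 ± 0.27 (SE), adjusted p = 1.75e-07), lower at P14 than at P5 (log2 fold change -1.21 ± 0.26 (SE), adjusted p = 0.000779), and lower at P60 than at E17 (log2 fold change -3.85 ± 0.29 (SE), adjusted p = 4.32e-12).

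Ccnd2, which encodes cyclin D2, fell earlier. Its level was 234, 312, 225 and 159 CPM at E13, 455, 483, 489 and 471 at E17, 253, 233, 238 and 178 at P1, 78.3, 75.1, 88.7 and 82.3 at P5, 61.2, 47.8, 47.3 and 60.6 at P14, 58.8, 46.8, 85.4 and 78.5 at P24, and 71.9, 58.99, 63.05 and 67.2 at P60. It fell to its lowest by P14, and the P14, P24 and P60 libraries overlapped. The calls were at E17 against E13 (higher, log2 fold change 1.03 ± 0.17 (SE), adjusted p = 7.01e-06, lost without E13 replicate 4), P1 against E17 (log2 fold change -1.08 ± 0.17 (SE), adjusted p = 1.53e-05, lost without P1 replicate 4) and P5 against P1 (log2 fold change -1.47 ± 0.17 (SE), adjusted p = 3.47e-07). After P14 it did not pass the test in either step, with log2 fold changes of 0.31 and -0.05.

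Ccnd3 encodes cyclin D3, and it was the member with the smallest change. Its level was 30.8, 106, 78.6 and 118 CPM at E13, 75.7, 72.4, 77.9 and 70.7 at E17, 81.2, 128, 145 and 137 at P1, 77.9, 74.8, 86.4 and 65.6 at P5, 43.97, 43.5, 46.2 and 48.8 at P14, 39.9, 26.99, 49.4 and 50.7 at P24, and 40.3, 40.3, 50.7 and 53.3 at P60. P1 replicates 2, 3 and 4 were the highest libraries of all, whereas P1 replicate 1, one of the libraries with a GC slope, was close to the E17 libraries. E13 replicate 1, another of them, was the lowest but for P24 replicate 2. All P60 libraries were below all E17 libraries (log2 fold change -0.68 ± 0.25 (SE), adjusted p = 0.0203), which did not reach 2-fold.

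Per kilobase of transcript, the scale on which different genes can be compared, Ccnd1 took 74.1% ± 0.494 (SD, n = 4) of the summed level of the 3 D cyclins at E17, Ccnd2 17.6% ± 0.239 and Ccnd3 8.25% ± 0.416. At P60 the shares were 40.5% ± 4.70, 19.1% ± 1.72 and 40.4% ± 4.90, so that Ccnd1 and Ccnd3 did not differ beyond their spread. The summed level of the 3 genes fell from 426 ± 17.6 to 54.0 ± 2.66 CPM per kilobase. At P60 Ccnd1 was at 21.9 ± 2.39, Ccnd3 at 21.9 ± 3.23 and Ccnd2 at 10.3 ± 0.873 CPM per kilobase. In the E13 libraries the share of Ccnd1 ran from 33.5% to 63.0% and that of Ccnd2 from 11.5% to 47.7%.

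Cdk4 and Cdk6, the kinases that bind D cyclins, differed in their course. The level of Cdk4 was 188, 343, 418 and 558 CPM at E13, 298, 302, 322 and 294 at E17, 218, 291, 295 and 299 at P1, 209.9, 203, 223 and 205 at P5, 109, 96.4, 105 and 117 at P14, 89.01, 84.5, 90.5 and 84.05 at P24, and 54.8, 63.3, 52.2 and 61.1 at P60. Its E13 mean was the highest of the timeline, but the E13 and E17 libraries overlapped and did not pass the test (log2 fold change -0.31 ± 0.18 (SE), adjusted p = 0.133). It was not called in any single step after E17, although each P14 library lay below each P5 library, and it was called lower at P60 than at E17 (log2 fold change -2.39 ± 0.19 (SE), adjusted p = 1.23e-11). The level of Cdk6 was 42.5, 53.9, 33.6 and 22.8 CPM at E13, 256, 275, 246 and 264 at E17, 135, 139, 112 and 119 at P1, 92.2, 93.9, 83.1 and 99.2 at P5, 62.7, 60.9, 55.2 and 68.3 at P14, 27.6, 34.1, 32.01 and 39.1 at P24, and 19.7, 14.1, 17.8 and 17.6 at P60. All E13 libraries lay far below the E17 libraries (log2 fold change 2.77 ± 0.17 (SE), adjusted p = 1.72e-13), and Cdk6 was the gene of this group with the largest fall to P60 (log2 fold change -3.91 ± 0.18 (SE), adjusted p = 1.84e-16). Its call at P1 (log2 fold change -1.04 ± 0.16 (SE), adjusted p = 1.37e-05) was lost without P1 replicate 3.

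**Figure D4:**
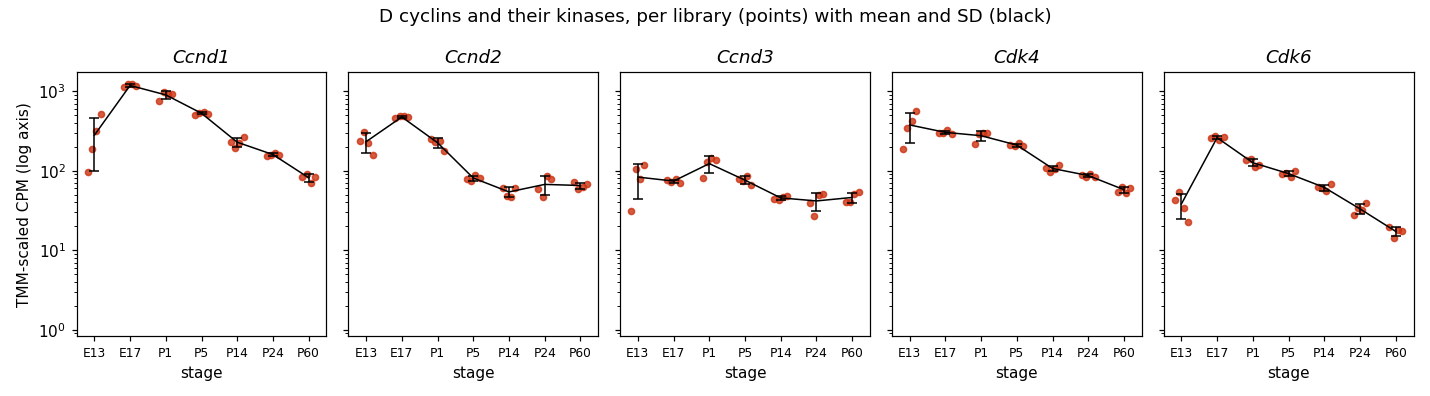
TMM-scaled CPM (vertical log axis) of the 3 D cyclins, Cdk4 and Cdk6 in each library (points) by stage (horizontal axis), with the mean and SD of 4 libraries in black. Ccnd1 falls from 1181 CPM at E17 to 81.7 CPM at P60, whereas Ccnd3 stays between 41.7 and 123 CPM in its stage means and Ccnd2 is level from P14 on.

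Of the G1/S genes, E2f8 fell the most and E2f3 the least. E2f8 encodes an atypical E2F repressor. Its level was 14.01, 24.4, 14.5 and 13.7 CPM at E13, 50.1, 53.1, 50.4 and 61.6 at E17, 29.5, 24.6, 31.7 and 27.98 at P1, 12.7, 10.3, 13.1 and 12.998 at P5, 3.43, 4.35, 4.12 and 3.91 at P14, 1.34, 2.98, 2.52 and 2.75 at P24, and 1.02, 1.31, 0.497 and 0.565 at P60. It fell at each step, with calls at P5 (log2 fold change -1.21 ± 0.19 (SE), adjusted p = 4.53e-05), P14 (log2 fold change -1.63 ± 0.21 (SE), adjusted p = 6.33e-07) and P60 (log2 fold change -1.55 ± 0.27 (SE), adjusted p = 0.000172), to 1.58% of its E17 mean (log2 fold change -6.01 ± 0.26 (SE), adjusted p = 4.1e-17). E2f3, an activating E2F factor, had a level of 33.4, 33.2, 27.8 and 19.4 CPM at E13, 42.3, 44.4, 43.3 and 47.4 at E17, 56.8, 47.3, 48.1 and 42.6 at P1, 32.1, 29.3, 32.4 and 33.9 at P5, 16.3, 17.7, 15.5 and 19.4 at P14, 12.9, 13.8, 14.1 and 13.5 at P24, and 12.1, 11.2, 8.95 and 8.79 at P60. Its highest mean was at P1, but P1 and E17 overlapped and the difference did not pass the test (log2 fold change 0.14 ± 0.13 (SE), adjusted p = 0.487). It was called in no single step and kept 23.1% at P60 (log2 fold change -2.11 ± 0.14 (SE), adjusted p = 4.81e-13). The other activators, E2f1 and E2f2, kept 5.17% and 2.81%, the repressor E2f7 1.68%, the E cyclins Ccne1 and Ccne2 3.54% and 3.40%, and their partner kinase Cdk2 19.2%.

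Of the replication genes, Mcm10, which joins the helicase at origin firing, fell the most. Its level was 14.1, 22.4, 28.6 and 26.6 CPM at E13, 35.5, 34.8, 36.002 and 35.6 at E17, 22.2, 16.4, 18.2 and 17.6 at P1, 8.38, 8.11, 9.46 and 9.03 at P5, 2.05, 2.54, 2.08 and 2.47 at P14, 0.788, 1.57, 1.93 and 1.505 at P24, and 0.512, 0.943, 0.497 and 0.565 at P60. From E17 up to P24 the libraries of each stage lay below those of the one before, and at P60, where the libraries held 7 to 13 counts, replicate 2 lay above P24 replicate 1 (log2 fold change -1.24 ± 0.27 (SE), adjusted p = 0.00195). Over the course it fell by 5.81 on the log2 scale (log2 fold change -5.81 ± 0.25 (SE), adjusted p = 2.72e-17). Pcna, the sliding clamp of the replication fork, fell the least. Its level was 81.1, 79.8, 101 and 95.3 CPM at E13, 166, 168, 154 and 160.4 at E17, 132, 119.6, 122 and 121 at P1, 77.5, 82.9, 94.4 and 84.8 at P5, 58.1, 55.6, 62.3 and 55.2 at P14, 57.4, 62.9, 58.97 and 57.6 at P24, and 49.05, 52.97, 55.1 and 56.1 at P60. It fell in each step from E17 to P14, and the P14 and P24 libraries overlapped (log2 fold change 0.03 ± 0.09 (SE), adjusted p = 0.934) and 32.9% of the E17 mean left at P60 (log2 fold change -1.60 ± 0.09 (SE), adjusted p = 6.66e-15). No single step of Pcna reached 2-fold.

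The 6 subunits of the MCM2 to MCM7 helicase form a ring with 1 copy of each, and their RNA levels lay furthest apart at P60. Per kilobase of transcript, the highest subunit exceeded the lowest 2.12-fold at E17 (Mcm6 at 62.1, Mcm2 at 29.3 CPM per kilobase), with 1.98 to 2.21 in the single libraries. At P60 it did so 7.15-fold (Mcm7 at 8.08, Mcm2 at 1.13), with 6.78 to 8.41 in the single libraries. In between, the ratio was 1.77 at P1, 1.83 at P5, 2.53 at P14 and 3.11 at P24, and before E17 it was 2.53, at E13. In the single libraries it was 1.59 to 2.35 at P1 and 1.53 to 2.27 at P5, and both ranges held that of E17. The ranges of the single libraries at P60 and at every other stage did not overlap, the next highest single library being at 4.28, at P24. Mcm2 kept 3.86% and Mcm5 3.35% of their E17 means, Mcm6 6.61%, Mcm3 7.36%, Mcm4 15.0% and Mcm7 19.9%. Of the factors that load the helicase, Cdc6 kept 3.78% and Cdt1 8.71%, and Cdc45, which joins the loaded helicase when an origin fires, kept 11.5%.

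Mcm7, the subunit with the highest level in the adult, had its highest mean at E13. Its level was 65.8, 106, 148 and 179.6 CPM at E13, 123, 117, 119 and 124 at E17, 75.4, 78.4, 89.1 and 81.1 at P1, 52.98, 50.7, 55.7 and 53.4 at P5, 22.8, 22.5, 26.2 and 25.2 at P14, 23.7, 19.3, 19.9 and 20.2 at P24, and 25.5, 21.6, 26.1 and 22.5 at P60. The E13 libraries ran from below to above the E17 libraries (log2 fold change -0.05 ± 0.17 (SE), adjusted p = 0.808), and the P14, P24 and P60 libraries overlapped. It was called lower at P14 (log2 fold change -1.14 ± 0.17 (SE), adjusted p = 1.16e-05) and at P60 against E17 (log2 fold change -2.33 ± 0.18 (SE), adjusted p = 7.61e-12). Mcm7 holds the miRNA genes Mir25, Mir93 and Mir106b and overlaps Cops6 and Ap4m1 on the other strand.

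**Figure D5:**
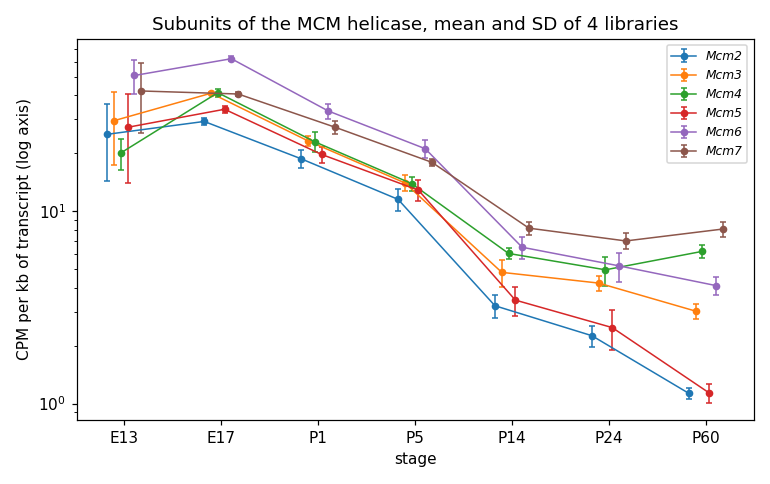
Level of the 6 MCM helicase subunits in CPM per kilobase of transcript (vertical log axis) by stage (horizontal axis), as mean and SD of 4 libraries. The 6 lines lie within 2.12-fold of each other at E17 and 7.15-fold at P60, where Mcm2 and Mcm5 are lowest and Mcm7 is highest.

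Ribonucleotide reductase makes deoxynucleotides and has a large subunit, Rrm1, and a small subunit, Rrm2. The level of Rrm2 was 51.6, 64.9, 86.2 and 61.6 CPM at E13, 109, 119.9, 102 and 107 at E17, 83.7, 75.8, 75.5 and 77.5 at P1, 34.1, 30.02, 34.6 and 40.2 at P5, 8.28, 7.97, 6.698 and 9.12 at P14, 3.15, 3.87, 4.45 and 5.72 at P24, and 0.877, 0.726, 1.24 and 0.377 at P60. It fell in every step, with calls at P5 (log2 fold change -1.17 ± 0.16 (SE), adjusted p = 7.21e-06), P14 (log2 fold change -2.11 ± 0.17 (SE), adjusted p = 4.76e-10) and P60 (log2 fold change -2.43 ± 0.24 (SE), adjusted p = 3.77e-08), to 0.736% of the E17 mean (log2 fold change -7.07 ± 0.24 (SE), adjusted p = 1.48e-19). The level of Rrm1 was 129.96, 142, 196 and 179 CPM at E13, 269, 266, 264 and 273 at E17, 195, 145, 155 and 153 at P1, 92.6, 94.04, 107 and 109.6 at P5, 55.3, 43.97, 45.4 and 49.1 at P14, 40.4, 45.03, 46.2 and 45.8 at P24, and 39.2, 35.05, 39.4 and 34.6 at P60. It was called lower in 1 step only, at P14 (log2 fold change -1.06 ± 0.12 (SE), adjusted p = 7.27e-08), and kept 13.8% (log2 fold change -2.85 ± 0.12 (SE), adjusted p = 3.51e-17). Tyms, thymidylate synthase, kept 6.13%. Among the 58 members, Rrm2 was thereby the only one outside mitosis that was left at under 1%.

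Among the mitotic cyclins, kinases and factors, Ccnb1 fell the most. Its level was 46.2, 52.7, 63.3 and 50.7 CPM at E13, 130.2, 131, 129 and 133 at E17, 69.2, 55.4, 51.6 and 54.6 at P1, 31.9, 33.1, 29.99 and 32.7 at P5, 7.36, 6.78, 5.799 and 8.96 at P14, 1.26, 2.77, 2.52 and 2.41 at P24, and 0.365, 0.145, 0.497 and 0.188 at P60. Each stage after E17 lay below the one before in all libraries, with the steps of -1.18 at P1, -2.14 at P14, -1.66 at P24 and -2.90 at P60 called, and the P60 libraries held 2 to 8 counts (log2 fold change -8.73 ± 0.25 (SE), adjusted p = 4.76e-21). Ccna2 and Cdk1 were left at 0.406% and 0.402%, Aurkb at 0.840%, Ccnb2 at 0.911%, Aurka at 1.21%, Foxm1 at 1.68% and Plk1 at 2.52%. Mybl2, which encodes B-Myb, fell the least. Its level was 4.67, 13.7, 16.03 and 20.7 CPM at E13, 22.5, 21.9, 23.8 and 23.2 at E17, 13.6, 16.6, 20.3 and 17.96 at P1, 7.003, 7.22, 9.93 and 8.92 at P5, 2.05, 2.32, 2.37 and 2.24 at P14, 2.52, 0.889, 1.04 and 1.58 at P24, and 1.46, 1.38, 0.995 and 1.07 at P60. Its P14, P24 and P60 libraries lay between 0.889 and 2.52 CPM, those of adjacent stages overlapped, and the step to P60 did not pass the test (log2 fold change -0.26 ± 0.37 (SE), adjusted p = 0.719). Over the course it fell by 4.22 on the log2 scale (log2 fold change -4.22 ± 0.34 (SE), adjusted p = 1.54e-11).

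In the chromosome group, Mki67 had a level of 154, 135, 91.6 and 51.9 CPM at E13, 1006, 987, 1000 and 1051 at E17, 684, 462, 476 and 465 at P1, 253, 256, 267 and 327 at P5, 71.4, 55.1, 51.9 and 68.1 at P14, 21.5, 21.4, 25.6 and 28.3 at P24, and 2.27, 2.104, 1.06 and 2.198 at P60. It was the strongest riser but for Cenpf (log2 fold change 3.22 ± 0.24 (SE), adjusted p = 4.55e-12), and it fell at P14 (log2 fold change -2.16 ± 0.23 (SE), adjusted p = 3.01e-08), P24 (log2 fold change -1.34 ± 0.22 (SE), adjusted p = 0.000285) and P60 (log2 fold change -3.68 ± 0.28 (SE), adjusted p = 2.3e-10) to 0.189% of the E17 mean. P1 replicate 1 lay above the other P1 libraries. Top2a, topoisomerase II of mitotic chromosomes, was left at 0.218%, and the condensin I subunits Ncapg and Ncaph at 0.336% and 1.06%. Smc2 and Smc4, the core of both condensins, were left at 7.48% and 14.3%. The level of Smc4 was 71.3, 40.7, 24.5 and 18.3 CPM at E13, 237, 244, 231 and 223 at E17, 175, 118, 112 and 109 at P1, 87.4, 96.7, 84.8 and 95.1 at P5, 54.4, 48.998, 47.9 and 55.04 at P14, 31.9, 42.6, 34.3 and 39.2 at P24, and 36.8, 30.1, 35.6 and 30.9 at P60. It was called higher at E17 (log2 fold change 2.59 ± 0.25 (SE), adjusted p = 1.15e-09, and 3.18 by limma-voom with quality weights), was called in none of the later steps, and its P24 and P60 libraries overlapped (log2 fold change -0.15 ± 0.24 (SE), adjusted p = 0.763). Smc4 holds the miRNA genes Mir15b and Mir16-2.

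At the kinetochore, Bub1 and Bub1b, paralogous proteins of the spindle checkpoint, had opposite ends of the range. The level of Bub1 was 34.9, 23.7, 19.9 and 8.42 CPM at E13, 99.9, 102, 97.8 and 94.1 at E17, 55.8, 40.3, 41.3 and 37.04 at P1, 20.9, 21.03, 22.3 and 21.8 at P5, 4.81, 3.84, 2.45 and 4.86 at P14, 1.498, 1.31, 0.840 and 2.14 at P24, and 0.146, 0.290, 0.0622 and 0.126 at P60. It was the only member called lower in all 5 steps after E17, and the P60 libraries held 1 to 4 counts (log2 fold change -9.29 ± 0.45 (SE), adjusted p = 3.85e-16). At this depth the adult level is limited by counting. The level of Bub1b, which encodes BubR1, was 45.6, 67.7, 76.2 and 69.6 CPM at E13, 124, 123, 123 and 128 at E17, 56.6, 55.5, 57.7 and 54.6 at P1, 34.01, 32.7, 38.9 and 37.7 at P5, 13.4, 8.76, 12.3 and 10.5 at P14, 9.93, 7.69, 6.62 and 10.2 at P24, and 10.3, 9.796, 15.2 and 13.4 at P60. The P24 and P60 libraries overlapped, and Bub1b was the only member that passed the test upwards in the last step, by less than 2-fold (log2 fold change 0.50 ± 0.16 (SE), adjusted p = 0.0344). It kept 9.75% of its E17 mean (log2 fold change -3.35 ± 0.17 (SE), adjusted p = 8.79e-16). Mad2l1, the checkpoint protein Mad2, kept 9.70%, Cenpa, the centromeric histone, 5.67%, Cdc20, an activator of the anaphase-promoting complex, 4.59%, Cenpe 2.05%, Birc5 0.705% and Cenpf 0.208%.

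Of the spindle genes, Hmmr had a level of 27.7, 23.7, 24.8 and 14.8 CPM at E13, 102, 101, 93.6 and 96.1 at E17, 52.6, 35.98, 33.98 and 40.9 at P1, 23.1, 24.7, 24.99 and 23.7 at P5, 6.595, 4.58, 5.35 and 6.99 at P14, 4.02, 1.83, 2.12 and 3.01 at P24, and 0.658, 0.0726, 0.187 and 0 at P60. All P60 libraries lay below all P24 libraries (log2 fold change -3.59 ± 0.43 (SE), adjusted p = 9.27e-07), and P60 replicate 1 with 9 counts was higher than the other 3 with 0 to 3 counts. Without P60 replicate 1 the log2 fold change was -4.87. For P60 against E17 the alternatives ran from -10.05 to -8.33 for Hmmr and from -9.74 to -9.02 for Bub1, and these ranges overlapped. The motors Kif11, Kif20a and Kif23 were left at 0.413%, 0.512% and 0.786%, the spindle assembly factor Tpx2 at 0.676%, the midzone bundler Prc1 at 0.840% and Ect2, which activates RhoA for cleavage, at 2.62%. Anln encodes anillin, a scaffold of the cleavage furrow that also binds actin outside division. Its level was 43.8, 43.7, 32.2 and 16.2 CPM at E13, 195, 198, 199 and 199 at E17, 109, 89.9, 85.03 and 89.7 at P1, 54.4, 57.005, 60.2 and 63.5 at P5, 42.3, 40.5, 39.1 and 42.4 at P14, 34.9, 43.6, 34.6 and 36.005 at P24, and 50.7, 46.5, 49.8 and 48.8 at P60. It rose to E17 (log2 fold change 2.54 ± 0.18 (SE), adjusted p = 2.79e-12) and fell at P1 (log2 fold change -1.08 ± 0.17 (SE), adjusted p = 1.97e-05), and it was called in none of the later steps. All P60 libraries lay above all P24 libraries without passing the test (log2 fold change 0.39 ± 0.17 (SE), adjusted p = 0.136), and 24.8% of the E17 mean was left.

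Promoter letters and the level left at P60 can be set side by side for the 48 members with a promoter. The 19 members with a CHR kept a median of 1.58% of the E17 mean (0.189% to 11.5%), and the 29 without kept 6.13% (0.158% to 62.3%). The 34 members with CCAAT kept a median of 1.91%, and the 14 without 6.39%. For the E2F letters the order over all classes together was the other way, with 3.78% for the 7 members that held them and 2.81% for the 41 that did not. The 10 members with a CHR and at least 2 CCAAT, of which Ccnb2, Cdk1, Top2a, Cdc20 and Mcm5 are printed above, kept 0.657% (0.189% to 5.67%). The 12 with neither kept 7.68% (1.06% to 62.3%). The letters and the class are tied, since 14 of the 19 members with a CHR and 11 of the 29 without were mitosis genes. Within mitosis, the 14 with a CHR kept a median of 0.559% (0.189% to 7.48%) and the 11 without 1.21% (0.158% to 24.8%), and the 20 with CCAAT kept 0.813% and the 5 without 5.37%. Within the replication and nucleotide genes, the 10 with CCAAT kept 6.99% and the 3 without 6.13%, and the 3 with a CHR kept 3.86% and the 10 without 6.99%. The order for the E2F letters differed by class. In mitosis the 1 member with them kept 0.402% and the 24 without 0.985%. In replication and nucleotide genes the 4 with them kept 5.19% and the 9 without 7.36%. In the D cyclin and G1/S groups the 2 with them kept 10.4% and the 8 without 5.90%. The ranges overlap widely, and Bub1, with the largest fall of all in the main fit, held no CHR in this window, which says only that these letters are not in these bases.

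A further list of 50 genes of the cell cycle, set up by textbook role, was read in the same fit. At E17 against E13, 24 of 50 were called higher and none lower. None was called higher and 12, 4, 41 and 15 were called lower in the steps to P1, P5, P14 and P24, and 19 in the step to P60, in which Wee1, the kinase that holds Cdk1 inactive, was called higher (1.29, from 4.58 to 11.2 CPM). From E17 to P60, 48 of 50 were called lower. The exceptions were Gins4, which was not called, and Pttg1, securin, which was called higher (1.01, from 15.2 to 30.6 CPM). The median over the 50 genes was -4.48.

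Markers of the other cell types took several courses after E17. From E17 to P60, none of the 7 macrophage, 6 endothelial and 4 perineurial genes was called lower, and 2, 2 and 4 of them were called higher. The perineurial genes rose from a sum of 262 to 303 CPM to one of 1021 to 1444 CPM. Of the 5 mesenchymal genes, 2 were called higher (Dcn and Lum), 2 lower (Col1a1 and Col3a1), and Pdgfra was not called. Their median log2 fold change was 0.51, although their sum was lower, with 16117 to 18074 CPM at E17 and 4914 to 7066 CPM at P60. Of the 5 Schwann cell genes 2 were called higher and 1 lower. Of 10 erythroid genes 7 were called lower, of 6 skeletal muscle genes 4, of 4 cartilage genes 3, and of 6 genes of neuron cell bodies 2, with Snap25 higher. In the step from P24 to P60, in which the mitosis genes fell further, no Schwann, macrophage, endothelial or perineurial gene was called, whereas 2 of 5 mesenchymal, 3 of 4 cartilage and 4 of 10 erythroid genes were called lower, with the erythroid Hbb-y and the neuronal Snap25 called higher. The summed erythroid level was 78.3 to 201 CPM at P24 and 23.3 to 49.2 CPM at P60. The part of these shifts in the fall of the members was not tested.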

How the data were processed

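Polyadenylated RNA of 28 mouse nerve libraries, 7 stages with 4 samples each, had been sequenced by the authors as single-end reads from stranded TruSeq libraries, trimmed and aligned with STAR (2.6.1c in the submitters' processing notes, which name the build GRCm38.p5). The deposited values are raw counts of reads per gene, made by the authors with featureCounts and not normalized. The strand setting and the treatment of reads with several alignments are not given in the sources used here, and the study's methods name a human build although the identifiers are mouse Ensembl ones. Of 41605 identifiers, 41519 matched GENCODE M21, from which symbols, lengths and neighbours were taken.

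The counts were scaled by TMM, filtered by filterByExpr (17700 genes left) and fitted in a single quasi-likelihood model with the stage as its term (edgeR 4.0.16, R 4.3.3, estimateDisp and glmQLFit with robust estimation). Adjacent comparisons share the libraries of a stage. The standard error is the log2 fold change over the square root of F. The script was tested on simulated counts. Levels per kilobase use the length of the principal transcript. The 42 replicate pairs differed beyond counting error (chi-square per degree of freedom 5.21 to 293). No label ties a library to an animal of another stage, and p-values measure the spread between these samples. Intervals for counting error are not given, and adult levels of a few counts are limited by depth.

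Members, gene lists and tests were chosen with earlier results of these data known. One Schwann cell marker of the lists is not reported here. Given in depth were the D cyclins with their kinases, the largest and the smallest fall from E17 to P60 in every other group, and genes whose highest mean was not at E17. Alternatives were DESeq2 (1.42.0) size factors and Wald test, library size alone, other filters, limma-voom (limma 3.58.1) with quality weights, fewer stages, the replicate number as a block, other thresholds, a shorter promoter window and libraries left out.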

Additional observations from a re-analysis of the deposited data

Results flagged for a closer look

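The 20 genes given in depth were checked in every stage for a library far from its 3 companions (Dixon's test at the 95% level). Of 140 groups of 4 libraries, 10 held such a library, where chance gives about 1 in 20. P1 replicate 1 was apart in 3 genes, with Mki67 at 684 CPM (others 462 to 476), Smc4 at 175 CPM (others 109 to 118) and Cdk4 at 218 CPM (others 291 to 299). This library also had the GC slope of -0.43, and the transcripts of Mki67 and Smc4 have a GC content of 46.6% and 40.2%, that of Cdk4 53.3%. The part of the slope in these values was not tested.

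E2f8 was at 24.4 CPM in E13 replicate 2 (others 13.7 to 14.5) and at 10.3 CPM in P5 replicate 2 (others 12.7 to 13.1). Anln was at 195 CPM in E17 replicate 1 (others 198 to 199) and at 43.6 CPM in P24 replicate 2 (others 34.6 to 36.0). Bub1b was at 128 CPM in E17 replicate 4 (others 123 to 124). At P60, Mcm10 was at 0.943 CPM in replicate 2 (others 0.497 to 0.565) and Mki67 at 1.06 CPM in replicate 3 (others 2.10 to 2.27).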

How the results depend on the processing

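For the 20 genes given in depth, all 360 alternative fits of P60 against E17 kept the direction and the side of the threshold, and no result was reversed. Of 278 alternative counts and medians over the members, 265 stayed within 1.5 times the count, or within 1 SD between replicates for a median, and the values of the others follow. Library size alone in place of TMM shifted all genes by -0.25 (E17 against E13), -0.12 (P1 against E17), -0.20 (P5 against P1), -0.17 (P14 against P5), 0.06 (P24 against P14), 0.12 (P60 against P24) and -0.31 (P60 against E17) on the log2 scale. The member medians were then 0.88 (E17 against E13), -1.04 (P1 against E17), -0.97 (P5 against P1), -1.86 (P14 against P5), -0.91 (P60 against P24) and -5.19 (P60 against E17), and 32 members were called at P1 and 23 at P5. With no fold minimum, 53 were called at P1 and 51 at P5. Without E13 replicates 1 and 4 and P1 replicate 1, 5 were called at P5. Leaving out single libraries gave 5 (without P1 replicate 1) to 14 calls at P5, and a median of -5.05 to -4.85 for P60 against E17. In every alternative, 27 of 33 calls at E17, 14 of 18 at P1, 4 of 10 at P5, 47 of 48 at P14, 14 of 21 at P24, 28 of 29 at P60 and 57 of 57 for P60 against E17 were kept.

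The labels give the replicate number as a subject number and tie no subject to another stage. Over 84 pairs of same-numbered libraries the correlation of deviations had a median of 0.08, and 33 were over 0.1. Over 252 pairs with other numbers the median was -0.04, and 29 were over 0.1. Of 28 libraries, 17 had their highest mean correlation with libraries of their own number. Same-numbered libraries were thus more often alike than others, and what they share was not tested. Not every same-numbered pair was over 0.1, and the numbers were not taken as pairs in the main fit. With the replicate block, 34, 19, 9, 48, 21 and 29 members were called in the adjacent steps and 57 for P60 against E17. In the 100 bases before the start, the CHR was found in 9 of 25 mitosis promoters and 1 of 13 promoters of replication and nucleotide genes, and the E2F letters in 0 and 1, where the CHR was in 5.37% of the promoters of genes tested and 9.71% of the table, and the E2F letters in 1.68% and 1.01%, since a shorter window holds fewer matches.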

Other observations

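The 50 further cell cycle genes were parted by role after their values were seen, into 23 genes of replication and 24 of mitosis, and are described without a test of the split. From E13 to E17, 9 of 23 and 14 of 24 were called higher, with medians of 0.84 and 1.20. At P1, 1 and 11 were called lower, with medians of -0.66 and -0.98, and at P5 3 and 0, with medians of -0.72 and -0.77. Both classes fell between P5 and P14, with 18 of 23 and 21 of 24 called lower and medians of -1.42 and -1.97. In the step to P24, 1 of 23 replication genes (Orc1, an origin recognition subunit) and 13 of 24 mitosis genes were called lower, with medians of -0.15 and -1.02. In the step to P60 the counts were 5 of 23 and 13 of 24, with medians of -0.33 and -1.43. Wee1, a kinase that holds back entry into mitosis, was the 1 mitosis gene called higher in that step.

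The 5 replication genes called lower at P60 were Orc1, Cdc7, Clspn, Tk1 and Uhrf1. Tk1, thymidine kinase of nucleotide salvage, went from 3.27 to 0.234 CPM and Uhrf1, which guides DNA methylation after replication, from 5.43 to 0.885 CPM. Orc1 had no count in any P60 library. Lig1, the ligase of the replication fork, was at 12.4 CPM at P24 and 15.6 CPM at P60 and did not pass the test. Of the mitosis genes, Kif4, Nuf2 and Nusap1 fell by 2.66, 2.61 and 2.20 on the log2 scale.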
